A study of Sordaria macrospora with 14 samples.

Results

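Perithecia of the delta-asm2 strain (Δasm2) of Sordaria macrospora were compared with sexual mycelium of the same strain. The comparison used 4 of the 14 RNA sequencing libraries of the study, all those from this strain, and all 9869 gene models of the count table, of which 9499 had enough counts to be tested. S. macrospora is a self-fertile filamentous ascomycete. Its sexual mycelium forms flask-shaped fruiting bodies, the perithecia, which enclose the asci and their ascospores in a wall of pigmented, glued hyphae. Perithecium formation is a change from a loose network of hyphae to a tissue with several cell types, and mutants with altered development are a classical way to find the genes it needs.

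Each strain was grown for 6 days at 25 °C on corn meal medium, in liquid culture for mycelium and on plates for perithecia. Perithecia were fixed on the plate in ethanol (10 min), scraped off and broken in a glass homogenizer. The other strains were the wild type and delta-SMAC_03952 (ΔSMAC_03952), each sampled as mycelium and as perithecia, and delta-spt3, sampled as mycelium. Every one of the 7 groups had 2 replicates, which the study states to be independent and biological. The labels mention microdissection in the library text, and samples were taken here as named. The sources used here do not pair asm2 with an identifier of the count table or state how the deletion was made, so the loss of its transcript was not checked. No table used here gives a product for any identifier, so neither tissue was checked against marker genes and no function is given for a gene below.

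The Δasm2 mycelium libraries held 16566840 and 9219211 counts (replicates 1 and 2), and the perithecia libraries held 13144699 and 16645179. Totals over all 14 libraries ran from 6383079 to 24029990. A level of at least 1 CPM (counts-per-million on scaled library totals) was reached by 8949 and 8961 gene models in Δasm2 mycelium and by 9137 and 9152 in Δasm2 perithecia. Across genes, Spearman's correlation was 0.97 between the mycelium replicates, 0.988 between the perithecia replicates and between 0.884 and 0.912 from one tissue to the other. Mycelium replicates spread more widely: the SD over genes of the log2 difference between replicates was 0.63 in mycelium and 0.38 in perithecia.

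Of 9499 genes, 2489 (26.2%) differed between Δasm2 perithecia and Δasm2 mycelium (edgeR quasi-likelihood test, adjusted p under 0.05). In perithecia 1226 genes were higher (12.9%) and 1263 were lower (13.3%). Higher genes went from a median of 19.3 and 20.5 CPM in the mycelium libraries to 51.9 and 51.8 CPM in the perithecia libraries. Lower genes went from 117 and 105 CPM to 41.7 and 41.8 CPM. In mycelium the genes that fell were thus the more abundant ones, and in perithecia the genes that rose were. The same libraries chose both sets, so these levels and the shares of counts that follow are descriptions and no test. The genes that fell held 34.7% and 32.5% of all counts in mycelium and 12.8% and 12.3% in perithecia. The genes that rose went from 7.03% and 7.31% to 22.6% and 23.5%. Perithecia and mycelium also differed in culture form and harvest, and a change in the number of cells of a type cannot be told apart from a change in RNA per cell.

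Most changes were moderate in size. The median log2 fold change was 1.40 among higher genes and -1.26 among lower genes, against 0.04 over all genes tested. At least 2-fold changes made up 76.3% of the higher genes (935) and 70.2% of the lower genes (886). Changes of at least 4-fold numbered 258 and 279, and changes of at least 16-fold numbered 26 and 41. The smallest changes that passed the test were 0.54 and 0.51 on the log2 scale. The perithecia and mycelium libraries did not overlap for any of the 2489 genes, but they also did not overlap for 3436 (higher) and 3093 (lower) of all 9499 genes, so with 2 libraries a group this says little. A test against a 2-fold change kept 550 genes, 245 higher and 305 lower. The count was 1262 without mycelium replicate 1, 1368 without perithecia replicate 1 and 1151 without perithecia replicate 2. Without scaling factors the median of all genes moved to 0.20, and 1438 genes were higher and 1028 lower.

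**Figure D1:**
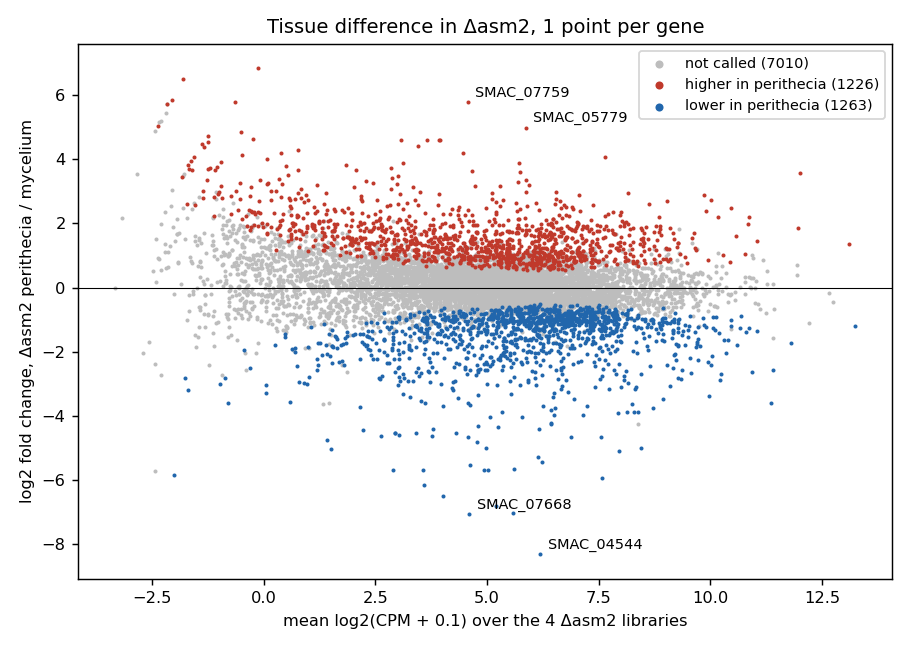
Log2 fold change between Δasm2 perithecia and Δasm2 mycelium (vertical axis) against the mean log2(CPM + 0.1) over the 4 Δasm2 libraries (horizontal axis), with 1 point per gene tested. Red points are the 1226 genes higher in perithecia and blue points the 1263 lower; blue points gather toward the right, at higher abundance, and the 4 labelled genes are those named in the text.

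The share of genes called in each direction differed with abundance, taken as the mean CPM over all 14 libraries. That mean includes the tested libraries and more mycelium than perithecia libraries, so these shares are descriptions. Among the quartile of genes with the highest mean level, above 95.6 CPM, 12.3% were higher in perithecia and 25.1% were lower. Among the quartile with the lowest level, below 14 CPM, 15.6% were higher and 6.23% were lower. Gene length moved with the result as well. In the longest quartile of gene models, from 2753 bases, 17.2% were higher and 8.21% lower, and the median log2 fold change was 0.29. The same quartile had medians of 0.09 in the wild type and 0.54 in ΔSMAC_03952. Between the replicates of one Δasm2 tissue, the log2 difference (replicate 2 minus 1) also correlated with length across genes, with Spearman's 0.21 in mycelium and 0.23 in perithecia. With the length trend removed from every library, 2804 genes were called. The part that length or RNA quality had in the result was not tested.

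Transcripts of highest abundance were compared per length, as RPKM (CPM divided by the length of the gene model in kilobases). The 100 most abundant genes of Δasm2 mycelium and the 100 of Δasm2 perithecia shared 59 genes. Of the 41 genes on the mycelium list alone, 35 were lower in perithecia and 0 were higher. Of the 41 on the perithecia list alone, 11 were higher and 0 were lower. Tissue decided both the list and the call, so these counts describe the lists and are no test. The mycelium list took 22.8% and 21% of the counts of its own tissue and 16.2% and 14% of those of perithecia. The top of both lists was chosen after its values were seen. SMAC_08587 led in mycelium with a mean of 17966 RPKM and stood at 1474 RPKM in perithecia (log2 fold change -3.61, edgeR adjusted p = 0.000527). SMAC_09010 led in perithecia with 16814 RPKM against 6585 RPKM in mycelium (log2 fold change 1.35, edgeR adjusted p = 0.0154).

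The genes with the largest rises were low in Δasm2 mycelium. SMAC_07759 stood at 0.58 and 8.68 CPM in Δasm2 mycelium (4.63 ± 5.73, mean ± SD, n = 2) and at 280.1 and 194 CPM in Δasm2 perithecia (237 ± 60.8). Both perithecia libraries lay far above both mycelium libraries, with a log2 fold change of 5.77 (standard error 0.83, adjusted p = 4.35e-04 by edgeR). The mycelium replicates differed so much that the log2 fold change was 8.63 without mycelium replicate 2 and 4.77 without mycelium replicate 1. In the wild type the gene was higher in both tissues, at 104 and 93.9 CPM in mycelium and at 1624 and 1593 CPM in perithecia (log2 fold change 4.03, standard error 0.73, adjusted p = 0.00169 by edgeR). In ΔSMAC_03952 it stayed between 0.387 and 2.68 CPM in all 4 libraries. In perithecia the Δasm2 libraries lay between those of the other strains.

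SMAC_05779 had the same layout. It stood at 3.03 and 22.9 CPM in Δasm2 mycelium (12.9 ± 14, n = 2) and at 439 and 362 CPM in Δasm2 perithecia (401 ± 54.2), without overlap (log2 fold change 4.99, standard error 0.68, adjusted p = 3.20e-04 by edgeR). Without mycelium replicate 2 the log2 fold change was 7.02. Wild-type libraries held 196 and 124 CPM in mycelium and 1247 and 1278 CPM in perithecia, and ΔSMAC_03952 libraries held between 2.50 and 4.48 CPM. The tissue change of neither SMAC_07759 nor SMAC_05779 differed past the threshold from that in the wild type (log2 differences 1.75 and 2.01, edgeR adjusted p = 0.362 and 0.21) or from that in ΔSMAC_03952 (4.11 and 4.24, edgeR adjusted p = 0.38 and 0.131).

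The largest falls came from genes that were high in Δasm2 mycelium. SMAC_04544 stood at 1993 and 749 CPM in mycelium (1371 ± 880, n = 2) and at 4.09 and 4.45 CPM in perithecia (4.27 ± 0.253). The groups were far apart, and the gene fell by 8.32 on the log2 scale (standard error 1.5, adjusted p = 0.00182 by edgeR). Wild-type mycelium held 3.80 and 73.5 CPM and ΔSMAC_03952 mycelium held 53.4 and 3.13 CPM, so the replicates of these groups differed by more than 10-fold, and Δasm2 mycelium lay above all of them. In perithecia the 3 strains lay between 0.695 and 4.58 CPM. The log2 fold change of SMAC_04544 was -3.22 in the wild type (edgeR adjusted p = 0.0689) and -4.66 in ΔSMAC_03952 (edgeR adjusted p = 0.0307). SMAC_07668 stood at 370.4 and 196 CPM in Δasm2 mycelium (283 ± 124) and at 2.48 and 1.76 CPM in Δasm2 perithecia (2.12 ± 0.513), and fell by 7.07 on the log2 scale (standard error 1.02, adjusted p = 4.69e-04 by edgeR). It also fell in the wild type (log2 fold change -2.70, edgeR adjusted p = 0.0279) and in ΔSMAC_03952 (-5.83, edgeR adjusted p = 0.00152). The tissue change of neither SMAC_04544 nor SMAC_07668 differed past the threshold from that in another strain. Against the wild type the log2 differences were -5.10 and -4.37 (edgeR adjusted p = 0.134 and 0.0787). Against ΔSMAC_03952 they were -3.66 and -1.24 (edgeR adjusted p = 0.617 and 0.766).

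**Figure D2:**
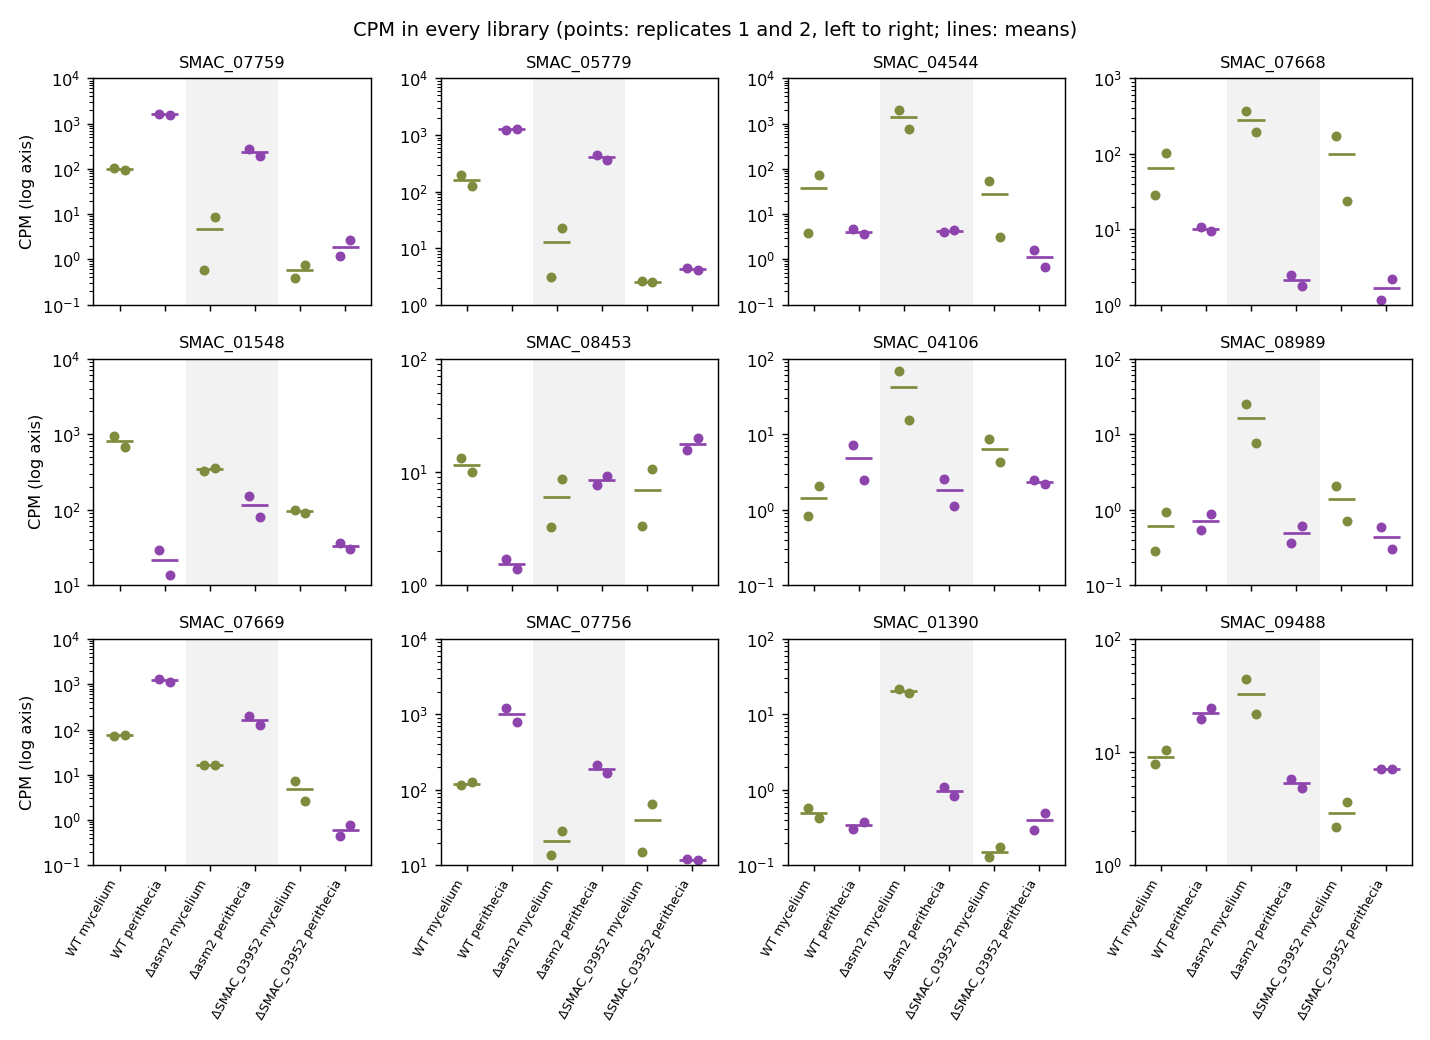
CPM on a log axis in each library of 3 strains for 12 genes, with mycelium in green, perithecia in purple, replicates as points and their means as lines; the Δasm2 groups are shaded. In the top row SMAC_07759 and SMAC_05779 rise from mycelium to perithecia and SMAC_04544 and SMAC_07668 fall; the middle row holds genes whose tissue change differed from the wild type, and the bottom row genes whose tissue change differed from ΔSMAC_03952.

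SMAC_03952, the gene deleted in one of the other strains and the only gene the labels name by identifier, differed between the Δasm2 tissues by less than the spread of replicates. It stood at 231 and 270 CPM in mycelium and at 226 and 275 CPM in perithecia (log2 fold change 0.00, standard error 0.22, adjusted p = 0.999 by edgeR). In ΔSMAC_03952 counts of the gene remained. It stood there at 21.3 and 25.1 CPM in mycelium and at 45.7 and 35.2 CPM in perithecia, below every Δasm2 library. The rise between these tissues was called (log2 fold change 0.795, standard error 0.23, adjusted p = 0.0172 by edgeR). The source of the remaining counts was not tested.

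Large rises and large falls differed in abundance. The 26 genes that rose at least 16-fold were scarce: their median was 0.0968 and 0.275 CPM in the mycelium libraries and 3.40 and 3.24 CPM in the perithecia libraries, and 9 of them reached a mean of 10 CPM. In mycelium 14 of them had at most 3 counts in all and 4 had none, so their fitted fold changes depend on the prior count. Against a floor of 3 counts over the mycelium group, those 4 genes were at least 2.25-fold to at least 6.30-fold higher, and the median log2 fold change of the 26 was 4.45 in place of 4.60. The 41 genes that fell at least 16-fold were abundant: 40 of them reached a mean of 10 CPM, with medians of 230.3 and 111 CPM in mycelium and 4.16 and 4.23 CPM in perithecia. One of the 41 had no count in perithecia, and with it at its bound the median was -4.74 in place of -4.82. Mycelium replicate 1 lay above replicate 2 for 38 of these 41 genes, with a median ratio of 2.28.

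These extremes were followed in the other strains, whose tissue comparisons share no library with that of Δasm2. Calls of all strains came from 1 fit of the 14 libraries. They thus share each gene's estimated spread, here and in the lists below, and are not fully independent. In the wild type 1401 of all 9499 genes were higher in perithecia (14.7%) and 1261 were lower (13.3%), and in ΔSMAC_03952 1556 were higher (16.4%) and 1840 were lower (19.4%). Of the 26 genes with a rise of at least 16-fold in Δasm2, 22 were also higher in wild-type perithecia and 3 were higher in ΔSMAC_03952 perithecia. Their median log2 fold change was 3.29 in the wild type and 0.71 in ΔSMAC_03952. The 41 large falls showed another split, with 24 also lower in the wild type (median -2.70) and 30 in ΔSMAC_03952 (median -4.12). Taken in the opposite direction, 13 of the 16 genes that rose at least 16-fold in the wild type were higher in Δasm2 (median 3.32 against 4.16 in the wild type), and 4 were higher and 1 lower in ΔSMAC_03952 (median 0.63). The difference between strains was tested gene by gene only. For the 26 genes the edgeR test against the wild type passed for 0 (6 at an unadjusted p under 0.05, and 1 by DESeq2), and against ΔSMAC_03952 it passed for 1 (17 and 8). For the 41 large falls it passed for 7 and 1. Over all genes these tests passed for 1.8% and 0.147%, and 1782 and 871 of 9499 genes had an unadjusted p under 0.05. Since Δasm2 chose the 26 and the 41 genes and is part of both tests, these counts are descriptions.

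Few genes switched between silence and expression. A single gene, SMAC_06782, stood below 1 CPM in both Δasm2 mycelium libraries and at or above 10 CPM in both perithecia libraries, and 0 genes did the opposite. SMAC_06782, singled out by this count after its values were seen, stood at 0.838 and 0.989 CPM in mycelium and at 14.6 and 11.1 CPM in perithecia (log2 fold change 3.82, standard error 0.43, adjusted p = 1.16e-04 by edgeR). In the wild type it went from 4.69 and 2.55 CPM to 55.5 and 76.3 CPM (log2 fold change 4.17, edgeR adjusted p = 1.8e-05). ΔSMAC_03952 libraries held between 0.289 and 0.645 CPM in both tissues. Its rise was thus present in the wild type and in Δasm2, and the difference between the Δasm2 and ΔSMAC_03952 changes did not pass the threshold (log2 difference 4.10, edgeR adjusted p = 0.0822). With limits of 0.5 and 5 CPM the counts were again 1 and 0, but for another gene than SMAC_06782. That gene had a mean of 0.349 CPM in Δasm2 mycelium and 6.69 CPM in Δasm2 perithecia, so no gene met both pairs of limits. At limits of 1 and 10 CPM, with single libraries in place of both, the counts ran from 1 to 9 and from 0 to 5.

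The comparison was next read through the lists of the other strains, to ask which tissue changes Δasm2 kept. The wild type and ΔSMAC_03952 shared 421 genes that were higher in perithecia. Of these 343 (81.5%) were higher in Δasm2 perithecia, 1 was lower and 77 were not called, and 417 had a positive log2 fold change. The median was 1.48 in Δasm2, 1.28 in the wild type and 1.40 in ΔSMAC_03952. They shared 645 genes that were lower in perithecia, of which 542 (84.0%) were lower in Δasm2 and 0 were higher (0 also at an unadjusted p under 0.05 in edgeR and by DESeq2), with medians of -1.52, -1.63 and -1.60 in the same order. In each fit with 1 Δasm2 library left out, a smaller share of these lists was called in Δasm2. This held where the lists of the other strains were longer in that fit and where they were shorter. The 343 genes had a median level of 30.2 CPM in Δasm2 mycelium and 87.9 CPM in Δasm2 perithecia, and the 542 genes went from 123 to 36.3 CPM. Most tissue changes called in both other strains were thus also called in Δasm2.

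Smaller shares came from changes called in 1 of the other strains. Of 845 genes higher in perithecia of the wild type and not called in ΔSMAC_03952, 252 (29.8%) were higher in Δasm2 and 11 were lower; the median was 0.61 in Δasm2 against 1.34 in the wild type. Of 572 genes lower in the wild type and not called in ΔSMAC_03952, 122 (21.3%) were lower in Δasm2 and 3 were higher, with medians of -0.44 and -1.47. The lists called in ΔSMAC_03952 alone gave larger shares, 386 of 1091 higher genes (35.4%) and 418 of 1060 lower genes (39.4%), with medians of 0.73 and -0.70 in Δasm2. Each list was chosen for its change in the other strain, and these shares were not tested against each other. Across genes, Spearman's correlation of the tissue change with length was 0.31 in ΔSMAC_03952, 0.11 in Δasm2 and -0.038 in the wild type. The 386 genes had a median length of 2846.5 bases, against 1853 for all genes. The 444 genes lower in Δasm2 and ΔSMAC_03952 but not in the wild type had 1660 bases. The part of length in these shares was not tested. Among the 4686 genes called in neither strain, 227 (4.84%) were higher in Δasm2 and 142 (3.03%) were lower.

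A replicate difference moved with the ΔSMAC_03952 lists. Mycelium replicate 2 of Δasm2 lay above replicate 1 for 81.6% of the genes higher in ΔSMAC_03952 alone and for 12.9% of the genes lower in ΔSMAC_03952 alone, against 49.9% of all genes. For the genes higher in both other strains the share was 52.7%, and for those lower in both it was 42.3%. The perithecia replicates showed the same tendency, with replicate 2 above replicate 1 for 76.8% and 25.8% of these ΔSMAC_03952 lists against 51.7% of all genes. The part of this difference in the counts above was not tested.

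**Figure D3:**
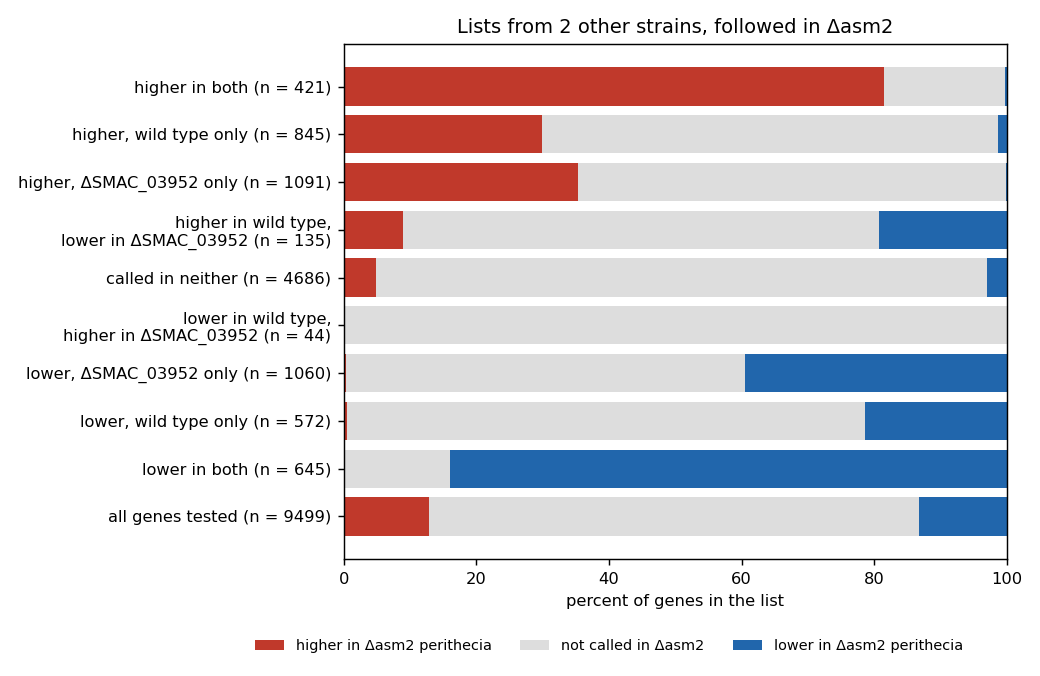
Percent of genes of each list that were higher (red), not called (grey) or lower (blue) in Δasm2 perithecia against Δasm2 mycelium. Lists are named by the calls in the wild type and ΔSMAC_03952, with the number of genes; the genes higher in both other strains are 81.5% red, the genes lower in both are 84.0% blue, and the bar of all genes gives the background.

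Where the other strains went in opposite directions, the Δasm2 median lay between theirs. The lists were chosen for opposite calls, so a strain with no tissue change would also lie between, and the position describes the lists only. The wild type was higher and ΔSMAC_03952 lower in perithecia for 135 genes, with medians of 1.24 and -1.15. In Δasm2 12 of these were higher, 26 were lower and 97 were not called, and the median was -0.28. Of the 44 genes lower in the wild type and higher in ΔSMAC_03952, 0 were called in Δasm2 by edgeR (3 at an unadjusted p under 0.05, and 0 by DESeq2) and the median was 0.16. This list had a wide replicate difference, with mycelium replicate 2 of Δasm2 above replicate 1 for 93.2% of its genes (median log2 difference 1.13) and perithecia replicate 2 above replicate 1 for 84.1%.

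Read from the Δasm2 side, 607 of the 1226 higher genes (49.5%) were also higher in wild-type perithecia and 729 (59.5%) in ΔSMAC_03952 perithecia. Of all genes, 14.7% and 16.4% were higher in these strains. Of the 1263 lower genes, 664 (52.6%) were also lower in the wild type (13.3% of all genes) and 986 (78.1%) in ΔSMAC_03952 (19.4% of all genes). These 4 counts rested in part on single Δasm2 libraries. Each was smaller in every fit with 1 Δasm2 library left out, and least so without mycelium replicate 2. Such a fit leaves 1 library in a group. A call in Δasm2 with no call in the same direction elsewhere was left for 233 higher genes (19%) and 155 lower genes (12.3%). Most of them did not pass a test of the difference between strains. The edgeR test of the difference from the wild type passed for 6 of the 233 and 18 of the 155, against 1.8% of all genes (24 and 41 by DESeq2, and 69 and 73 at an unadjusted p under 0.05 in edgeR). The test of the difference from ΔSMAC_03952 passed for 0 and 4, against 0.147% of all genes (8 and 9 by DESeq2, and 61 and 42 at an unadjusted p under 0.05 in edgeR). The Δasm2 libraries chose the genes and entered these tests too, so the counts describe the genes. On the log2 scale, the median change of the 233 genes was 1.26 in Δasm2, 0.53 in the wild type and 0.46 in ΔSMAC_03952.

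The difference of tissue changes between Δasm2 and the wild type was then tested directly. It passed for 171 of 9499 genes (1.8%; edgeR quasi-likelihood test of the interaction, adjusted p under 0.05). The change was more positive in Δasm2 for 50 genes (0.526%) and more negative for 121 (1.27%). Most of the 121 were genes that rose in wild-type perithecia: 61 rose in the wild type and were not called in Δasm2, 38 rose in the wild type and fell in Δasm2, and 4 rose in both but less in Δasm2. A further 17 fell in Δasm2 and were not called in the wild type, and 1 fell in both but more in Δasm2.

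Levels by tissue show where these genes parted. The 61 genes had a median of 29.8 CPM in wild-type mycelium and 105 CPM in wild-type perithecia, whereas in Δasm2 they stood at 33.2 and 33.3 CPM. The mycelium medians were thus close and the perithecia medians were not. The 38 genes went from 49.5 to 91.8 CPM in the wild type and from 85.6 to 41.5 CPM in Δasm2, so here the medians of both tissues lay apart. Gene by gene, Δasm2 was tested against the wild type within each tissue (edgeR, adjusted p under 0.05). Of the 38 genes, 30 were lower in Δasm2 perithecia, 13 were higher in Δasm2 mycelium and 5 were called in both tissues. The 17 genes went from 58 to 50.9 CPM in the wild type and from 90.8 to 20.6 CPM in Δasm2. Since the interaction chose these genes with the same libraries, the medians and these calls describe them and support no test. In ΔSMAC_03952, whose libraries are not part of this contrast but share its fit, the 121 genes went from a median of 40.2 CPM in mycelium to 21.7 CPM in perithecia. There 60 of them were lower in perithecia, 4 were higher and 57 were not called. Of all genes, 19.4% were lower and 16.4% were higher in perithecia of that strain.

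Among the 50 genes with a more positive change in Δasm2, 22 fell in the wild type and were not called in Δasm2. Their median went from 64.1 to 21.2 CPM in the wild type and stood at 59.8 and 72.6 CPM in Δasm2. Another 12 fell in both strains but less in Δasm2, 13 rose in Δasm2 and were not called in the wild type, and 3 fell in the wild type and rose in Δasm2. The 13 genes went from 41 to 45 CPM in the wild type and from 13.3 to 49.4 CPM in Δasm2, so the medians lay apart in mycelium and close in perithecia. Against the wild type, 8 of the 13 were called lower in Δasm2 mycelium, and 5 were called higher and 1 lower in Δasm2 perithecia. All medians of this kind carry the spread of 2 libraries a group. In ΔSMAC_03952, 16 of the 50 genes were higher in perithecia, 16 were lower and 18 were not called.

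**Figure D4:**
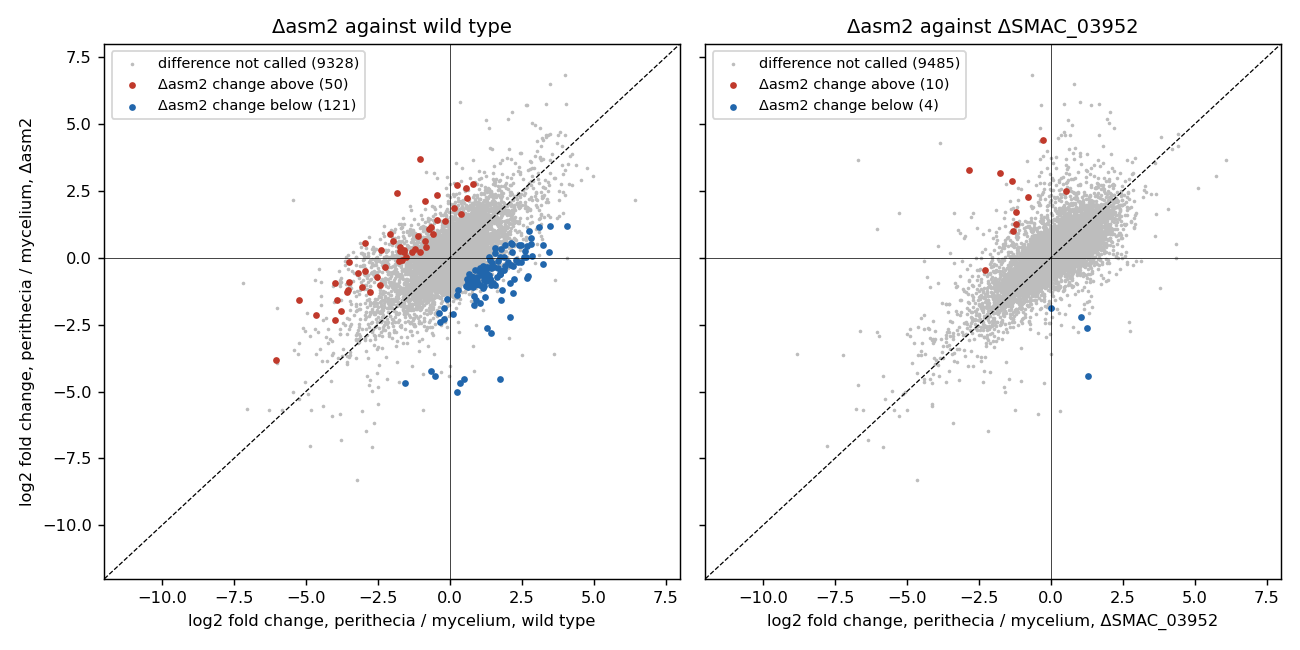
Log2 fold change between perithecia and mycelium in Δasm2 (vertical axis) against that in the wild type (left) and in ΔSMAC_03952 (right), with 1 point per gene and the dashed line where both are equal. Coloured points passed the test of the difference, 171 genes on the left and 14 on the right; on the left most blue points lie right of 0 and near or below 0 on the vertical axis.

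SMAC_01548 was the first of the genes with a more positive change. It stood at 932 and 667 CPM in wild-type mycelium and at 29.5 and 13.4 CPM in wild-type perithecia. In Δasm2 it went from 325 and 356 CPM to 151 and 79.5 CPM. It fell in both strains, by 5.22 on the log2 scale in the wild type and by 1.56 in Δasm2 (difference 3.66, standard error 0.57, adjusted p = 0.0101 by edgeR). SMAC_08453 stood at 3.22 and 8.68 CPM in Δasm2 mycelium and at 7.67 and 9.28 CPM in Δasm2 perithecia, where the groups overlapped. In the wild type it went from 13.3 and 9.91 CPM to 1.68 and 1.37 CPM (difference 3.47, standard error 0.77, adjusted p = 0.046 by edgeR).

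In the other direction, SMAC_04106 stood at 68.4 and 15.2 CPM in Δasm2 mycelium and at 2.56 and 1.1 CPM in Δasm2 perithecia, and wild-type libraries lay between 0.809 and 7.10 CPM. The difference of changes was -6.30 (standard error 1.08, adjusted p = 0.0159 by edgeR). SMAC_08989 stood at 25 and 7.58 CPM in Δasm2 mycelium and at 0.365 and 0.604 CPM in Δasm2 perithecia, with wild-type libraries between 0.283 and 0.939 CPM (difference -5.29, standard error 1.12, adjusted p = 0.0367 by edgeR). For these genes Δasm2 mycelium was the group that stood apart, and its replicate 1 lay above replicate 2 in both.

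The number of genes in this test rested on single libraries. It was 35 and 365 without Δasm2 mycelium replicates 1 and 2, and 20 and 2 without Δasm2 perithecia replicates 1 and 2. It was 25 and 96 without wild-type mycelium replicates 1 and 2, and 50 and 96 without wild-type perithecia replicates 1 and 2. All 4 genes named above lost their call without Δasm2 mycelium replicate 1 and without either Δasm2 perithecia replicate, with adjusted p from 0.0506 to 0.2. Their direction held in every one of these fits. With only the 8 libraries compared the number was 422, and by DESeq2 it was 680.

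The tissue change of Δasm2 differed from that of ΔSMAC_03952 for 14 genes (0.147%), of which 10 had the more positive change in Δasm2 (0.105%) and 4 the more negative one (0.0421%). At an unadjusted p under 0.05 there were 871 such genes, against 1782 in the test with the wild type. SMAC_07669 led the 10. It stood at 16.4 and 16.7 CPM in Δasm2 mycelium and at 199.6 and 125 CPM in Δasm2 perithecia (log2 fold change 3.29, standard error 0.40, adjusted p = 1.55e-04 by edgeR). In ΔSMAC_03952 it went from 7.22 and 2.61 CPM down to 0.434 and 0.795 CPM. The difference of changes was 6.13 (standard error 0.68, adjusted p = 0.00743 by edgeR). Wild-type libraries went from 73.6 and 77.4 CPM to 1299 and 1146 CPM, so the rise of SMAC_07669 was shared by the wild type and Δasm2, and its level in Δasm2 perithecia lay between those of the other strains.

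SMAC_07756 had a like pattern. It stood at 13.7 and 28.6 CPM in Δasm2 mycelium and at 215 and 168 CPM in Δasm2 perithecia, against 14.8 and 65.2 CPM and 12 and 11.6 CPM in ΔSMAC_03952 (difference 4.97, standard error 0.77, adjusted p = 0.0328 by edgeR). In the wild type it went from 115 and 127 CPM to 1231 and 786 CPM.

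SMAC_01390 was the first of the 4 genes with a more negative change. It stood at 21.9 and 19.4 CPM in Δasm2 mycelium and at 1.1 and 0.824 CPM in Δasm2 perithecia, and all libraries of the wild type and ΔSMAC_03952 lay between 0.129 and 0.566 CPM. In every library of both Δasm2 tissues this gene thus stood above the other strains, and by more in mycelium. The difference of changes was -5.74 from ΔSMAC_03952 (standard error 0.87, adjusted p = 0.0323 by edgeR). From the wild type it was -3.91 (standard error 0.69, adjusted p = 0.0173 by edgeR). In perithecia, with 15 counts in each Δasm2 library, its level did not differ past the threshold from the wild type (log2 difference 1.45, edgeR adjusted p = 0.08). SMAC_09488 was the single gene that rose in the wild type and in ΔSMAC_03952 and fell in Δasm2. It stood at 43.9 and 21.6 CPM in Δasm2 mycelium and at 5.84 and 4.83 CPM in Δasm2 perithecia (log2 fold change -2.62, standard error 0.38, adjusted p = 5.82e-04 by edgeR). It rose from 7.84 and 10.4 CPM to 19.8 and 24.5 CPM in the wild type and from 2.19 and 3.60 CPM to 7.09 and 7.15 CPM in ΔSMAC_03952. The difference was -3.91 from the wild type (standard error 0.52, adjusted p = 0.00528 by edgeR) and -3.88 from ΔSMAC_03952 (standard error 0.55, adjusted p = 0.0295 by edgeR).

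The 14 genes also rested on single libraries. Their number was 0 without either ΔSMAC_03952 perithecia replicate, 1 and 8 without Δasm2 perithecia replicates 1 and 2, 4 without Δasm2 mycelium replicate 1 and 25 without ΔSMAC_03952 mycelium replicate 1. In an edgeR fit of the 8 libraries compared it was 0 (1025 at an unadjusted p under 0.05), and by DESeq2 on all libraries it was 112. All 4 named genes lost their call in the fit of the 8 libraries, with adjusted p from 0.0755 to 0.113, and without either ΔSMAC_03952 perithecia replicate, with adjusted p from 0.109 to 0.53.

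Calls were also compared between neighbouring genes. The gene order came from a RefSeq annotation in which 9173 tested genes were found, giving 8517 pairs of direct neighbours. After a gene that was higher in Δasm2 perithecia, the next gene was higher in 22.0% of pairs (241 of 1096) and lower in 9.85%. After a lower gene, the next was lower in 19.3% (220 of 1142) and higher in 8.93%. The background shares of all genes were 12.9% and 13.3%. Both kinds of neighbour pair can share reads where gene models overlap, and 2 of the 8517 pairs did so in the annotation. Runs of at least 3 neighbours called in the same direction numbered 34 for higher genes and 34 for lower genes, with 113 genes in each kind.

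The longest run of higher genes held 7, from SMAC_09010 to SMAC_09004. Their log2 fold changes in Δasm2 lay between 1.35 and 2.48, with a median of 1.91. All 7 were also higher in perithecia of the wild type (median 1.79) and of ΔSMAC_03952 (median 1.43), and 0 of them differed in tissue change from either strain by edgeR, at an unadjusted p under 0.05 or by DESeq2. SMAC_09010, the leader in abundance named above, stood at 7037 and 4119 CPM in Δasm2 mycelium and at 14461 and 14022 CPM in Δasm2 perithecia (log2 fold change 1.35, standard error 0.36, adjusted p = 0.0154 by edgeR). In delta-spt3 mycelium the same gene had 5 and 2 counts. Its call in Δasm2 ended without mycelium replicate 2 (edgeR adjusted p = 0.126) and without either perithecia replicate (0.0696 and 0.0675). SMAC_09004, at the other end, went from 304 and 174 CPM to 856 and 729 CPM (log2 fold change 1.73, standard error 0.37, adjusted p = 0.00521 by edgeR).

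The longest runs of lower genes held 5. One of them ran from SMAC_07246 to SMAC_07242, with log2 fold changes between -3.97 and -1.65 and a median of -2.30. All 5 genes were lower in wild-type perithecia (median -3.12) and 4 were lower in ΔSMAC_03952 perithecia (median -2.87). SMAC_07242 stood at 1039.7 and 1094 CPM in Δasm2 mycelium and at 89.5 and 82.8 CPM in Δasm2 perithecia (log2 fold change -3.63, standard error 0.27, adjusted p = 1.60e-05 by edgeR). SMAC_07246 was scarce by comparison, at 10.1 and 12.9 CPM and at 4.53 and 2.80 CPM (log2 fold change -1.65, standard error 0.47, adjusted p = 0.021 by edgeR), and its call ended without any one of the 4 libraries (adjusted p from 0.0513 to 0.173). The other run of 5, from SMAC_06284 to SMAC_06280, had log2 fold changes between -2.13 and -0.60 in Δasm2 (median -1.17). Of its genes 1 was lower in wild-type perithecia (median -0.46) and 5 were lower in ΔSMAC_03952 perithecia (median -1.16). A shared direction defines a run and is no finding about its genes.

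**Figure D5:**
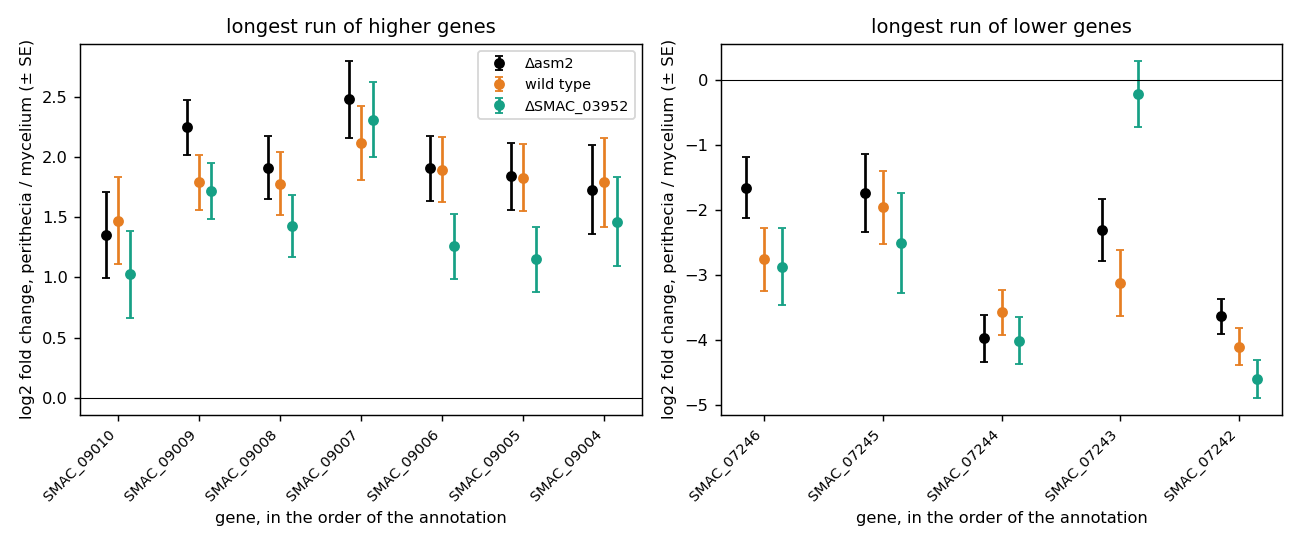
Log2 fold change between perithecia and mycelium, with its SE, for the genes of the longest run of higher genes (left, 7 genes) and of a longest run of lower genes (right, 5 genes) in Δasm2, the wild type and ΔSMAC_03952. All points on the left lie above 0, and on the right SMAC_07243 in ΔSMAC_03952 lies near 0 while the others lie below -1.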

How the data were processed

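Raw counts of reads for each gene model were deposited by the authors, per the file headers, with the length of each model in bases. Aligner, counter, genome build and strand handling were not given in the sources used here, so counts of close copies and of overlapping genes are uncertain. The authors' deposited table also holds a mean normalized signal, log2 fold changes and adjusted p-values of their own comparisons, made with DESeq2 per the submitters' processing notes; it has none for Δasm2 perithecia against mycelium, and these columns entered no test here.

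Of 10014 rows, 145 second transcripts held 0 counts and were set aside. The tests used edgeR 4.0.16 under R 4.3.3: filterByExpr with 7 groups kept 9499 of 9869 gene models (those left out held 0.00468% of counts), TMM factors scaled the libraries, and quasi-likelihood tests with 1 mean per group used all 14 libraries (7 residual degrees of freedom, biological coefficient of variation 0.237). Adjusted p-values are Benjamini-Hochberg values over all genes tested. Interactions subtract the tissue change of another strain. The method was tested on simulated data. Replicates of each group differed well beyond counting noise, with a chi-square per gene from 12 to 129. Total counts, from 6383079 to 24029990, limit the precision of scarce genes.

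Comparisons and lists were chosen with earlier results of these data known. The rule for named genes took, per comparison, the 2 largest changes in each direction among genes called, with at least 10 CPM and, for the tissue comparison, replicates without overlap; SMAC_03952 and the ends of the longest neighbour runs were added. Locus tags were found for 9531 gene models in the RefSeq annotation ASM3387043v1, which gave 0 other symbols, so it served for gene order only, and planned lists by product were not run. Alternatives covered scaling, filters, DESeq2 1.42.0, other sets of libraries, a replicate block, length trends, thresholds and each library left out.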

Additional observations from a re-analysis of the deposited data

Results flagged for a closer look

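The tissue change differed between Δasm2 and the wild type for 171 genes by the interaction test (edgeR, adjusted p under 0.05). Its named genes were SMAC_01548, with a log2 difference of 3.66, SMAC_08453 with 3.47, SMAC_04106 with -6.30 and SMAC_08989 with -5.29. The tissue change differed between Δasm2 and ΔSMAC_03952 for 14 genes by the same kind of test. Its named genes were SMAC_07669, with a log2 difference of 6.13, SMAC_07756 with 4.97, SMAC_01390 with -5.74 and SMAC_09488 with -3.88. Groups of 2 libraries are too small for a check of single outlying libraries.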

How the results depend on the processing

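The Δasm2 tissue count of 2489 genes stayed within 1.5 times under 10 alternatives (2310 to 2901). It was 550 (245 higher, 305 lower) in a test against a 2-fold change and 1237 (571 and 666) at an adjusted p under 0.01. With 1 library left out it ran from 1151 to 2052, with 591 to 888 higher and 546 to 1164 lower genes. The difference from the wild type, 171 genes, was called for 300 genes without delta-spt3, 341 with the length trend removed, 680 by DESeq2 and 422 in a fit of the 8 libraries of both strains, and for 2 to 365 with 1 library left out. The difference from ΔSMAC_03952, 14 genes, was called for 9 genes with no scaling factors, 112 by DESeq2 and 0 in a fit of its own 8 libraries, and for 0 to 25 with 1 library left out. Genes shared by the 3 strains ran from 226 to 267 (higher) and from 358 to 530 (lower) with 1 Δasm2 library left out. The cause of these shifts was not tested, and a fit with a library left out has fewer samples. The replicate numbers were not taken as pairs: over 21 pairs of groups, the correlation of same-numbered deviations ran from -0.331 to 0.375, with 11 over 0.1 and 6 under -0.1. It was 0.188 for the Δasm2 groups, whose replicates also shifted alike with gene length. With a replicate block the counts were 2572, 231 and 17. Over the named genes, 182 results kept their status as called or not called, and 55 lost the call. A change of direction was counted only where a fit was called, and there were 0. SMAC_03952, not called in any fit, ran from -0.32 to 0.15 on the log2 scale. Scarce genes are limited by depth, as 14 of the 26 largest rises had at most 3 counts in mycelium.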
